A study of Mus musculus with 4 samples.

Results

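The genes that encode the proteins of the cytosolic ribosome were examined in brown adipose tissue (BAT) of mouse fetuses whose dams drank fructose water or tap water. The members were the protein-coding genes of the deposited count table whose symbol starts with Rpl or Rps followed by a digit, plus Rplp0, Rplp1, Rplp2 and Rpsa, without ribosomal S6 kinases, Rps19bp1 and symbols with -ps. This rule gave 85 of the 22298 genes in the table. They fell into 46 genes of the large (60S) subunit, 31 genes of the small (40S) subunit and 8 paralogs, which are second copies with symbols of their own (Rpl3l, Rpl7l1, Rpl10l, Rpl22l1, Rpl36al, Rpl39l, Rps27l and Rps27rt).

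The study compared 2 groups of 2 RNA sequencing libraries each, from C57BL/6 fetuses (C57BL/6J in the study's methods) labelled male and taken at the end of gestation. In the control group the dams drank tap water through pregnancy, and in the fructose group they drank water with 20% (w/v) fructose. No transgene or deletion was involved, and the sources do not say how many fetuses or litters each library holds. The p-values therefore measure the spread between the libraries, which may be partly technical.

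Each ribosomal subunit is built in the nucleolus from ribosomal RNA and one copy of most of these proteins, so that their messages are needed in about equal numbers. The messages belong to the terminal oligopyrimidine (TOP) class. A TOP message starts with a C followed by an unbroken stretch of C and T, and its translation is switched by the nutrient-sensing kinase mTORC1 through the binding protein Larp1. Several paralogs are used mainly in one tissue: Rpl3l replaces Rpl3 in striated muscle, and Rpl10l and Rpl39l are copies used in male germ cells.

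The libraries held 19224529 and 18542897 counts in the control group and 22461298 and 23645147 in the fructose group. A count of 3, taken as the detection floor, corresponded to between 0.127 and 0.162 CPM, the unit used here for counts scaled to a common library total with TMM factors. The labels call the fetuses of both groups male, but the counts on Y-linked genes were 422 and 390 in control and 0 in each fructose library. As both fructose libraries went against the label, no comparison without them could be made, and sex and treatment cannot be told apart here. Mitochondrially encoded genes took 5.89% and 6.49% of control counts and 10.8% and 11.2% of fructose counts. All 8 brown adipocyte markers were detected, with a summed level between 13942 and 17100 CPM in the 4 libraries, so the defining markers of the labelled tissue were present. The 8 skeletal muscle markers summed to 242 and 330 CPM in control against 770 and 561 CPM in fructose libraries, and all 8 were called higher.

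The sequence around the annotated 5′ start of several member genes held a run of C and T, the letters with which a TOP message starts. The following windows, from RefSeq on GRCm38.p6, run from 40 bases before to 20 bases into the transcript on the gene's own strand, with runs of 8 or more C or T in capitals. They were chosen to set genes with a large decrease (Rps10, Rpl15, Rpl39, Rps27) beside the 60S gene with the smallest difference (Rpl4) and the muscle paralog (Rpl3l).
Rps10, chr17:27635225-27635284, minus strand: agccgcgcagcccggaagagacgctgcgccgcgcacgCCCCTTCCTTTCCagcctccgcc
Rpl15, chr14:18270967-18271026, minus strand: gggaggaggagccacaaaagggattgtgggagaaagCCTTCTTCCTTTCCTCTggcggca
Rpl39, chrX:37085203-37085262, minus strand: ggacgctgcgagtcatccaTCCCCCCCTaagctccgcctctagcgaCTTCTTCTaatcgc
Rps27, chr3:90213629-90213688, minus strand: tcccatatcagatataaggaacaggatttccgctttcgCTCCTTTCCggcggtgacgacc
Rpl4, chr9:64173347-64173406, plus strand: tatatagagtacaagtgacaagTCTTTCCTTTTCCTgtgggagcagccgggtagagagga
Rpl3l, chr17:24727786-24727845, plus strand: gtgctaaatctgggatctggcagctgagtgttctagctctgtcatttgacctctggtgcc

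A run of at least 8 C or T within 20 bases of the start, read on the gene's strand, was present in 28 of the 65 member genes with a RefSeq promoter entry (43.1%). The same was true of 16.0% of 27025 genes taken with 1 promoter each. The run was found in 16 of 34 60S genes, 10 of 23 40S genes and 2 of 8 paralogs. The runs of Rps10, Rpl15 and Rps27 cross the annotated start. Those of Rpl39 lie before and after it, and that of Rpl4 ends before it. The Rpl3l window holds none. The annotated start can lie some bases away from the start used in this tissue, so a run in a window need not begin the message. A window without a run says only that these letters are not there.

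Ribosomal protein genes as a whole took a smaller part of all counts in the fructose libraries. Their share was 4.08% (95% Wilson binomial interval 4.07 to 4.09%) in control 1 and 3.60% (3.59 to 3.60%) in control 2. It was 2.85% (2.84 to 2.86%) in fructose 1 and 3.01% (3.01 to 3.02%) in fructose 2. Both fructose libraries lay below both control libraries, and the 2 control libraries lay further apart than the 2 fructose libraries. The mean share was 3.84% ± 0.343 (SD, n = 2) in control and 2.93% ± 0.117 (SD, n = 2) in fructose, a difference of -0.907 percentage points. The two-sided exact permutation test gave p = 0.333, the smallest value that 2 libraries against 2 allow. The intervals cover counting error only. Without mitochondrially encoded and haemoglobin genes in the total, the difference was -0.827 points. In bulk tissue, fewer cells of a type and less RNA per cell cannot be told apart.

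Both subunits moved by nearly the same amount. The 60S genes took 2.42% and 2.14% of counts in control and 1.70% and 1.79% in fructose libraries, and the 40S genes took 1.62% and 1.42% in control and 1.12% and 1.19% in fructose libraries. The ratio of summed 60S to summed 40S counts was 1.493, 1.505, 1.520 and 1.509 in control 1, control 2, fructose 1 and fructose 2. This ratio was 1.499 ± 0.00815 (SD, n = 2) in control and 1.515 ± 0.00792 (SD, n = 2) in fructose, a log2 difference of 0.0148 (two-sided exact permutation p = 0.333). The sign of that small difference turned (-0.0132, exact permutation p = 0.667) when the 5 members with the most counts were left out, so no shift between the subunits held across both ways of summing.

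**Figure D1:**
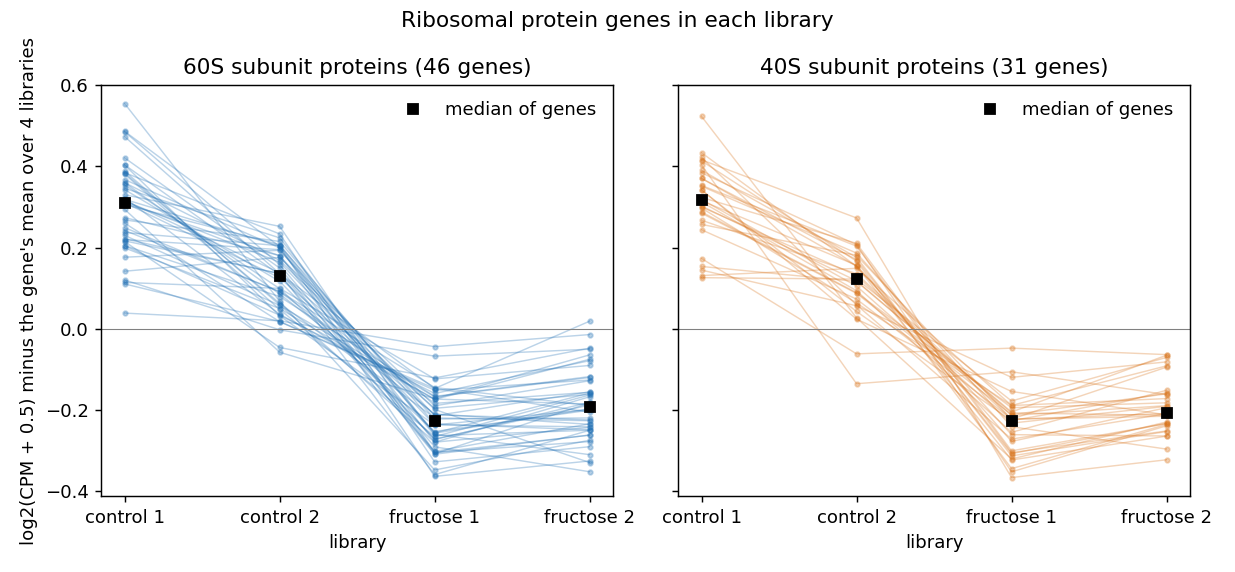
Level of each 60S (left) and 40S (right) gene in the 4 libraries, as log2(CPM + 0.5) minus the mean of that gene over the 4 libraries. Points are genes, thin lines join the values of 1 gene across libraries that have no order, and black squares are the median of the genes. In both subunits the median square of each control library lies above 0 and that of each fructose library below 0, and control 1 is higher than control 2.

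The plot of levels by library shows that the decrease was shared by nearly all genes and that the control libraries differed among themselves. Of the 83 members tested, 82 had a log2 fold change (fructose over control) below 0, against 49.7% of all 12888 genes tested. The median log2 fold change was -0.43 (quartiles -0.53 and -0.31), a level 26.0% lower, while the median over all tested genes was 0.0025. In the quasi-likelihood test of edgeR, with p-values adjusted by Benjamini and Hochberg's method over all tested genes, 68 of the 83 fell at an adjusted p below 0.05 and 0 rose. In all, 10.7% of tested genes were called lower and 15.5% higher by this rule. Both fructose libraries lay below both control libraries in 78 members, which held for 31.6% of all tested genes, and above them in 1 member, against 33.4% of all. With the fold cut of the study's own methods (unadjusted p below 0.05 and a fold change above 1.3), 50 members were lower and 0 higher, against 6.18% and 17.6% of all tested genes.

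The difference between the control libraries was also shared. The median member was higher in control 1 than in control 2 by 0.17 on the log2 scale, with 79 of 83 in that direction, whereas the fructose libraries differed by -0.042 (fructose 1 minus fructose 2). Leaving out control 1 brought the median log2 fold change to -0.32 with 64 members called (12.8% of all tested genes called lower), and leaving out control 2 brought it to -0.52 with 74 called (11.2% of all). Erythroid markers followed the same order of libraries: the 7 that were found (of 8 listed) summed to 19204, 15294, 11766 and 12141 CPM in control 1, control 2, fructose 1 and fructose 2, with 5 called lower and 0 of them at 0 counts in all libraries. Their part in the ribosomal protein result was not tested. The median was -0.43 and 68 members were called when haemoglobin and mitochondrially encoded genes were left out of the counts (10.7% of all tested genes called lower). The 6 cycling-cell markers, which rise in dividing cells, summed to 72.0, 77.7, 79.4 and 67.5 CPM, with overlapping groups, 0 called lower and 1 called higher. The 1 was Mki67, with 42 and 49 counts in control and 192 and 196 in fructose libraries, a log2 fold change of 1.74 (edgeR adjusted p = 0.00038), still called with length and GC trends removed (1.23, edgeR adjusted p = 0.0058). What part this has in the result was not tested.

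**Figure D2:**
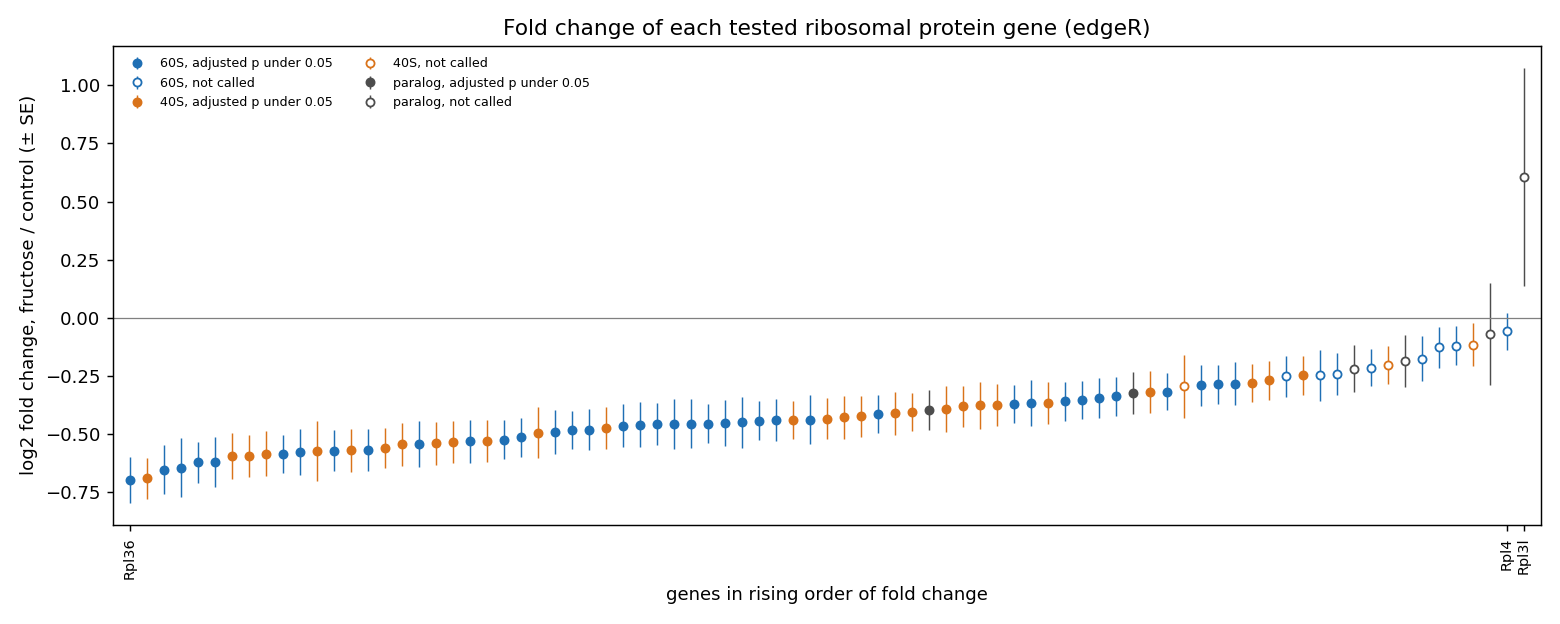
Log2 fold change (fructose over control, edgeR) of the 83 tested ribosomal protein genes in rising order, with bars of 1 standard error. Blue marks 60S, orange 40S and grey paralog genes, and filled points passed an adjusted p of 0.05. All points but Rpl3l lie below 0, and 60S and 40S genes are intermixed along the order. The axis names the lowest gene (Rpl36) and the highest pair (Rpl4 and Rpl3l).

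Among the 60S genes, 38 of 46 fell and 0 rose, with a median log2 fold change of -0.45 (quartiles -0.52 and -0.32). Levels per length, as CPM per kilobase of transcript averaged over the 4 libraries, ran from 68.0 for Rpl22 to 1436 for Rpl41 with a median of 474. The 60S genes with the highest level per length were Rpl41, Rpl19, Rplp0, Rpl23a and Rplp1.

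Rpl41 encodes the shortest ribosomal protein, a single small helix at the interface between the subunits. It was measured at 806 and 645 CPM in control and 530 and 528 CPM in fructose libraries, a log2 fold change of -0.46 (SE 0.10, edgeR adjusted p = 0.0089). Rpl19, which forms a bridge to the small subunit, was at 1240 and 1140 CPM in control and 815 and 787 CPM in fructose libraries (log2 fold change -0.57, SE 0.09, edgeR adjusted p = 0.0012). In both genes the fructose libraries were below the control libraries without overlap.

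The P stalk, the arm of the large subunit that recruits elongation factors, is formed by Rplp0, Rplp1 and Rplp2, and all 3 fell. Rplp0, the base of the stalk, was at 1879 and 1717 CPM in control and 1225 and 1335 CPM in fructose libraries, a log2 fold change of -0.49 (SE 0.09, edgeR adjusted p = 0.0036). Rplp1, an acidic stalk protein bound to Rplp0, was at 679 and 541 CPM in control and 397 and 380 CPM in fructose libraries, a log2 fold change of -0.65 (SE 0.11, edgeR adjusted p = 0.0016). Rplp2, the partner of Rplp1, was at 597 and 495 CPM in control and 360 and 372 CPM in fructose libraries, a log2 fold change of -0.58 (SE 0.10, edgeR adjusted p = 0.0020). The last of the 5 genes with the highest levels behaved less clearly. Rpl23a, which lies at the exit of the peptide tunnel where the signal recognition particle docks, was at 689 and 612 CPM in control and 536 and 567 CPM in fructose libraries, and its log2 fold change of -0.24 (SE 0.09) did not pass (edgeR adjusted p = 0.068).

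The 60S genes with the lowest fold changes were Rpl36, Rplp1, Rpl39, Rpl15 and Rpl37a. Rpl36 was at 361 and 297 CPM in control and 200 and 206 CPM in fructose libraries, the lowest log2 fold change of any member at -0.70 (SE 0.10, edgeR adjusted p = 0.00085). Rpl15, a protein buried in the core of the large subunit, was at 896 and 807 CPM in control and 547 and 561 CPM in fructose libraries (log2 fold change -0.62, SE 0.09, edgeR adjusted p = 0.00085). Both genes showed a gap between the groups that was wider than the gap within either group. Rpl37a, a zinc-binding protein, was at 359 and 284 CPM in control and 201 and 217 CPM in fructose libraries (log2 fold change -0.62, SE 0.11, edgeR adjusted p = 0.0023).

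At the other end of the order stood Rpl4, Rpl21 and Rpl5. Rpl4, whose long loop lines the peptide exit tunnel, was at 308 and 304 CPM in control and 290 and 297 CPM in fructose libraries, with a log2 fold change of -0.06 (SE 0.08, edgeR adjusted p = 0.62). Rpl21 was at 268 and 246 CPM in control and 236 and 238 CPM in fructose libraries (log2 fold change -0.12, SE 0.08, edgeR adjusted p = 0.31). In both genes the groups did not overlap although neither passed the test. Rpl5, which binds 5S ribosomal RNA together with Rpl11 and, when free, holds the p53 ligase Mdm2, was at 221 and 207 CPM in control and 185 and 207 CPM in fructose libraries (log2 fold change -0.13, SE 0.09, edgeR adjusted p = 0.31), and its groups overlapped. The other 60S genes that did not pass were Rpl14, Rpl22, Rpl37 and Rpl26, with log2 fold changes from -0.25 to -0.17.

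Among the 40S genes, 28 of 31 fell and 0 rose, with a median log2 fold change of -0.43 (quartiles -0.54 and -0.37). The median of the 60S genes thus lay 0.023 below that of the 40S genes on the log2 scale, a description for which no test was run. Levels per length ran from 54.7 CPM per kilobase for Rps15a to 1399 for Rps14, with a median of 499, close to the 60S median. The low value of Rps15a rests on an annotated transcript of 5179 bases, and per kilobase of coding sequence its level was 721 CPM. Rps14, Rps2, Rps15 and Rps18 were among those with the highest levels per length.

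Rps14, which sits on the platform of the small subunit beside the mRNA exit, was both the most abundant 40S message per length and the one with the lowest fold change. It was at 1083 and 981 CPM in control and 629 and 649 CPM in fructose libraries, a log2 fold change of -0.69 (SE 0.09, edgeR adjusted p = 0.00050). Rps2, at the entry of the mRNA channel, was at 1699 and 1571 CPM in control and 1103 and 1155 CPM in fructose libraries (log2 fold change -0.53, SE 0.09, edgeR adjusted p = 0.0018). Rps15, a protein of the head near the decoding site, was at 753 and 649 CPM in control and 462 and 482 CPM in fructose libraries (log2 fold change -0.57, SE 0.09, edgeR adjusted p = 0.0016). All 3 genes fell, and in each the lower control library was well above the higher fructose library. Rps18, also of the head, was at 536 and 483 CPM in control and 340 and 353 CPM in fructose libraries (log2 fold change -0.56, SE 0.09, edgeR adjusted p = 0.0013).

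Rps10, Rps16 and Rps27 were also among the 40S genes with the lowest fold changes. Rps10, at the beak of the subunit, was at 440 and 363 CPM in control and 260 and 271 CPM in fructose libraries (log2 fold change -0.59, SE 0.10, edgeR adjusted p = 0.0018). Rps16, whose tail reaches the transfer RNA in the P site, was at 406 and 342 CPM in control and 240 and 259 CPM in fructose libraries (log2 fold change -0.58, SE 0.10, edgeR adjusted p = 0.0018). Both genes fell by nearly equal amounts. Rps27, a zinc-finger protein, was at 312 and 221 CPM in control and 174 and 185 CPM in fructose libraries (log2 fold change -0.57, SE 0.13, edgeR adjusted p = 0.0085). Control 1 stood well above control 2 here and the standard error was larger, and Rps27 was the 1 member of the 68 that DESeq2 did not call.

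The 40S genes with the highest fold changes were Rps27a, Rps24 and Rps4x. Rps27a, which is made as a fusion with ubiquitin, was at 261 and 222 CPM in control and 224 and 222 CPM in fructose libraries, so its groups overlapped (log2 fold change -0.12, SE 0.09, edgeR adjusted p = 0.38). Rps24 was at 421 and 396 CPM in control and 351 and 360 CPM in fructose libraries (log2 fold change -0.20, SE 0.08, edgeR adjusted p = 0.089). Rps29 was the third 40S gene that did not pass, at 304 and 209 CPM in control and 213 and 205 CPM in fructose libraries, where control 1 alone stood high (log2 fold change -0.29, SE 0.14, edgeR adjusted p = 0.13).

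Because the fructose libraries held no Y-linked counts, the X-linked members were looked at apart. The 4 X-linked 60S and 40S genes (Rpl10, Rpl36a, Rpl39 and Rps4x) lay at a median log2 fold change of -0.31, and all 4 fell, while the 73 autosomal ones had a median of -0.44 with 62 called lower. The median of the 413 X-linked genes tested was 0.12, with 26 called lower and 97 called higher. Over all tested genes, 10.7% were called lower and 15.5% higher. With the length and GC trends described further on removed, the 4 members had a median of -0.11 and 0 were called. The 413 genes then had a median of -0.0052. Rps4x, the X-linked copy of a gene that in humans also has a Y-linked copy, was at 497 and 496 CPM in control and 403 and 434 CPM in fructose libraries (log2 fold change -0.25, SE 0.08, edgeR adjusted p = 0.046). Rpl10, which joins the large subunit last and completes its peptidyl centre, was at 371 and 340 CPM in control and 287 and 296 CPM in fructose libraries (log2 fold change -0.29, SE 0.08, edgeR adjusted p = 0.027). Rpl36a, near the exit site of transfer RNA, was at 112 and 101 CPM in control and 85.6 and 83.0 CPM in fructose libraries (log2 fold change -0.34, SE 0.08, edgeR adjusted p = 0.013). Rpl39, in the wall of the exit tunnel, was at 232 and 165 CPM in control and 124 and 130 CPM in fructose libraries (log2 fold change -0.64, SE 0.13, edgeR adjusted p = 0.0045). The X-linked members thus moved in the direction of the other ribosomal protein genes, with Rpl39 among the lowest of all.

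The Rpl10 value is uncertain for another reason. The gene Rpl10-ps3, outside the members because of its symbol, has a coding sequence 100% identical to that of Rpl10, and it was given 8222, 6907, 6308 and 7098 counts in control 1, control 2, fructose 1 and fructose 2 beside 7028, 6130, 6482 and 7263 for Rpl10. Reads from the shared sequence cannot be assigned to one of them, and their log2 fold changes (-0.52 and -0.29) both lay below 0.

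The paralogs were a more mixed group, with levels per length from 0 to 327 CPM per kilobase and a median of 18.6. Of the 8, 6 could be tested, 2 fell (Rps27l and Rpl36al) and 0 rose. Rpl10l had 0 counts in all 4 libraries, which allows up to 0.127 to 0.162 CPM per library. Rps27rt had 8, 8, 0 and 17 counts and was not tested, and its coding sequence is 100% identical to that of Rps27, so reads of the pair cannot be told apart. The median log2 fold change of the 6 tested paralogs was -0.20.

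Rps27l, a copy of Rps27 that p53 induces, was the paralog with the highest level here, at 327 CPM per kilobase of transcript against 647 for Rps27. The coding sequences of the pair, from GENCODE M21 on GRCm38, are shown because reads of the 2 genes can be told apart at the capital letters. These mark the 61 of 255 bases that differ (76.1% identity). For Rps27l the annotated form nearest in length to Rps27 is shown, while the form used for its coding length elsewhere has 318 bases.
Rps27, gene at chr3:90212522-90213651, minus strand: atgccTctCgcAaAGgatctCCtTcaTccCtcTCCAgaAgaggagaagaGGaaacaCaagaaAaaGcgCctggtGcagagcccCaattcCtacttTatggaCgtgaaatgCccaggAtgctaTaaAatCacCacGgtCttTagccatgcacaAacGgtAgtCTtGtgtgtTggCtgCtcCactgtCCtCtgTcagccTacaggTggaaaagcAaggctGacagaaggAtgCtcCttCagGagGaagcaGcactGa
Rps27l, gene at chr9:66946086-66949516, plus strand: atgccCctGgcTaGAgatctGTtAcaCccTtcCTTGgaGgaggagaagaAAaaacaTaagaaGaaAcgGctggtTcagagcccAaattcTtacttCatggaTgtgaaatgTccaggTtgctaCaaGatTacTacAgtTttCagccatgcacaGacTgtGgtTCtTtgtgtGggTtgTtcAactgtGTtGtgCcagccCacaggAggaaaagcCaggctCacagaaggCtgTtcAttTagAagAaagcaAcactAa

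Rps27l was at 226 and 202 CPM in control and 160 and 165 CPM in fructose libraries (log2 fold change -0.40, SE 0.09, edgeR adjusted p = 0.0067), so paralog and parent both fell. Rps27l counts were 72.3%, 91.1%, 92.0% and 89.0% of Rps27 counts in control 1, control 2, fructose 1 and fructose 2. Control 1 alone stood apart, where Rps27 itself was high. The log2 ratio of paralog to parent was 0.16 higher in fructose (two-sided exact permutation p = 0.667), and -0.0097 without control 1.

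Among the paralog pairs with over 10 counts of both genes in every library, Rpl39 and Rpl39l had the widest gap in fold change. Its size varied with the correction described further on. Rpl3l and Rpl3, at log2 fold changes of 0.61 and -0.37, lay further apart, but Rpl3l did not reach that count. The coding sequences of Rpl39 and Rpl39l, from the same annotation, differ at 23 of 156 bases (85.3% identity), again in capitals.
Rpl39, gene at chrX:37082520-37085402, minus strand: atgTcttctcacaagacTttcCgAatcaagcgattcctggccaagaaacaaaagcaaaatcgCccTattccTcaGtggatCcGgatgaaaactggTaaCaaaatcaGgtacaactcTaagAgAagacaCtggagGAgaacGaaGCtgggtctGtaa
Rpl39l, gene at chr16:10170226-10174911, plus strand: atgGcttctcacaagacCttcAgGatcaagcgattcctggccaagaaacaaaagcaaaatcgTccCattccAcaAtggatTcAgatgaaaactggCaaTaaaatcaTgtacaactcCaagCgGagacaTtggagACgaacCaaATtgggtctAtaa

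Rpl39l had 96, 74, 100 and 106 counts, or 5.07 and 4.10 CPM in control and 4.42 and 4.33 CPM in fructose libraries, with overlapping groups (log2 fold change -0.07, SE 0.22, edgeR adjusted p = 0.84). It made up 2.19% and 2.48% of Rpl39 counts in control and 3.57% and 3.32% in fructose libraries. The log2 ratio to the parent was -5.42 ± 0.130 (SD, n = 2) in control and -4.86 ± 0.0739 (SD, n = 2) in fructose. This difference of 0.56 was larger than the spread between libraries, with p = 0.333 in the two-sided exact permutation test, the smallest that the design allows. It was the largest of the differences in the 5 paralog to parent ratios compared. With length and GC trends removed, the log2 fold changes of Rpl39 and Rpl39l were nearer to each other, at -0.40 and -0.13 (edgeR adjusted p = 0.054 and 0.77).

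**Figure D3:**
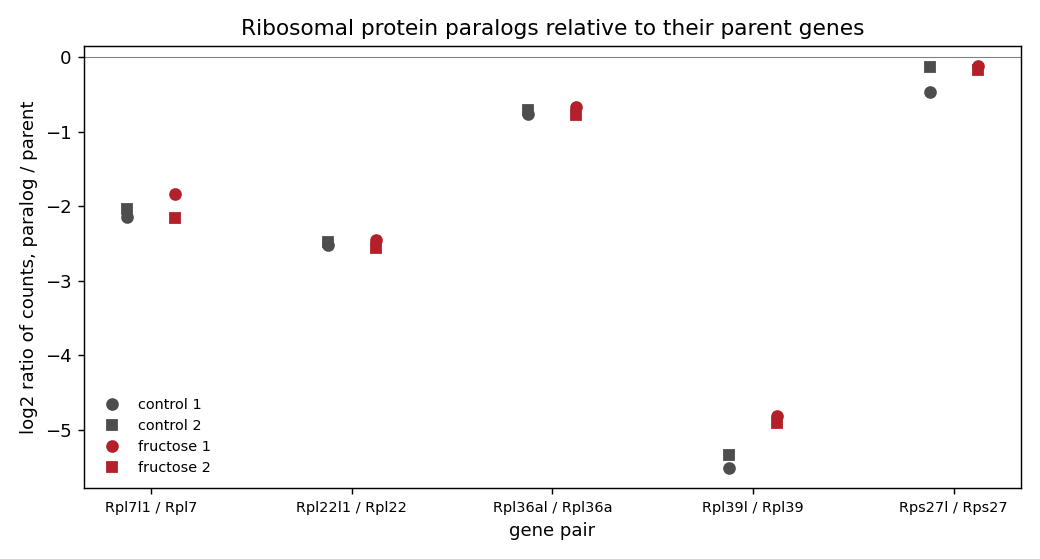
Log2 ratio of the counts of 5 paralogs to those of their parent genes, with control libraries in grey and fructose libraries in red, circles for replicate 1 and squares for replicate 2. A value of 0 means equal counts. The 2 fructose libraries lie above the 2 control libraries for Rpl39l over Rpl39, and the groups overlap for the other 4 pairs.

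The plot of paralog to parent ratios shows that in the other pairs the ratio did not separate the groups. Rpl36al, with a coding sequence 87.9% identical to that of Rpl36a, was at 66.0 and 61.8 CPM in control and 53.9 and 48.3 CPM in fructose libraries (log2 fold change -0.32, SE 0.09, edgeR adjusted p = 0.022). Its log2 ratio to Rpl36a differed by 0.011 between the groups (exact permutation p = 1). Parent and paralog therefore fell side by side. Rpl22l1, which can take the place of Rpl22, was at 28.1 and 24.2 CPM in control and 23.3 and 22.8 CPM in fructose libraries (log2 fold change -0.18, SE 0.11, edgeR adjusted p = 0.25). Rpl22, its parent, was at 161 and 135 CPM in control and 128 and 134 CPM in fructose libraries (log2 fold change -0.17, SE 0.10, edgeR adjusted p = 0.20), and the ratio differed by -0.011 (exact permutation p = 1). Neither gene of this pair passed the test.

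Rpl7l1, the most divergent copy with 50.3% identity to Rpl7 and a known role in ribosome assembly, was at 84.5 and 93.4 CPM in control and 83.6 and 69.2 CPM in fructose libraries (log2 fold change -0.22, SE 0.10, edgeR adjusted p = 0.13). Its ratio to Rpl7 differed by 0.094 (exact permutation p = 1).

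Rpl3l, the striated muscle copy of Rpl3, was close to the detection floor. It had 10, 9, 17 and 20 counts in control 1, control 2, fructose 1 and fructose 2, or 0.528, 0.499, 0.752 and 0.817 CPM. Both fructose libraries were above both control libraries, yet the log2 fold change of 0.61 (SE 0.47) did not pass (edgeR adjusted p = 0.37), and the gene had entered the test through its fructose counts. Its counts equalled between 0.0729% and 0.152% of those of Rpl3 in each library. The skeletal muscle markers were higher in the same 2 libraries, and their part in the Rpl3l counts was not tested.

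How far the family lay below 0 varied with the treatment of transcript length and base composition. Across 12884 tested genes with a transcript in the annotation, the log2 fold change had a Spearman correlation of 0.498 with transcript length and -0.527 with GC content, so that short and GC-rich genes were on the whole lower in the fructose libraries. The same correlations were -0.0222 and -0.133 for control 1 minus control 2 and -0.163 and 0.208 for fructose 1 minus fructose 2. The members had a median transcript length of 830 bases against 2989.5 for all tested genes, with the same median GC content of 50.7%. The genes of a library share its preparation and depth, so these correlations describe 4 libraries.

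When a smooth trend with length and GC content was removed from each library, the median log2 fold change of the members was -0.17, a level 11.0% lower, and 70 of 83 stayed below 0. By the same edgeR test 13 were called lower (5 60S, 7 40S and 1 paralog) and 0 higher, against 3.33% of all tested genes called lower. With the length trend alone removed, 20 members were called (7.75% of all tested genes lower). With the GC trend alone removed, 61 were called (7.50% of all), of which 58 were among the 68 and Rpl5, Rpl22l1 and Rps24 were additions. Of these 13, 12 were among the 68 called without the correction, and Rpl5 was the 1 addition. The others were Rpl12, Rpl15, Rpl23, Rpl37a, Rps3, Rps15a, Rps16, Rps20, Rps23, Rps25, Rpsa and Rps27l. Their annotated transcripts had a median of 1280 bases against 777.5 for the other 70 members. Some of those transcripts are long forms, such as that of Rps15a with 5179 bases, and whether the long form is the one present was not tested.

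Some genes kept their call under this correction while others lost it. Rpl15 went from -0.62 to -0.82 (edgeR adjusted p = 0.00025), Rps16 from -0.58 to -0.38 (edgeR adjusted p = 0.035) and Rpl37a from -0.62 to -0.42 (edgeR adjusted p = 0.020). Rps27l was hardly altered at -0.41 (edgeR adjusted p = 0.0097). Rps14 came to -0.30 (edgeR adjusted p = 0.058) and Rpl36, the lowest before, to -0.16 (edgeR adjusted p = 0.30). The correction put 13 of the 83 above 0, among them Rpl41, Rpl4, Rpl23a and Rps27a, at 0.0057, 0.019, 0.034 and 0.11.

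Using the length and GC content of the coding sequence in place of the transcript's gave an intermediate picture. The median was then -0.29, and 37 members were called lower (22 60S, 13 40S and 2 paralogs), against 6.00% of all tested genes. Of these, 35 were among the 68, and Rpl5 and Rpl22l1 were added. Rpl39 was at -0.70 (edgeR adjusted p = 0.0014) and Rps27l at -0.60 (edgeR adjusted p = 0.0010) under this setting. The median of the family was below 0 under each of these corrections, with 13 to 61 genes called, against 68 without a correction.

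**Figure D4:**
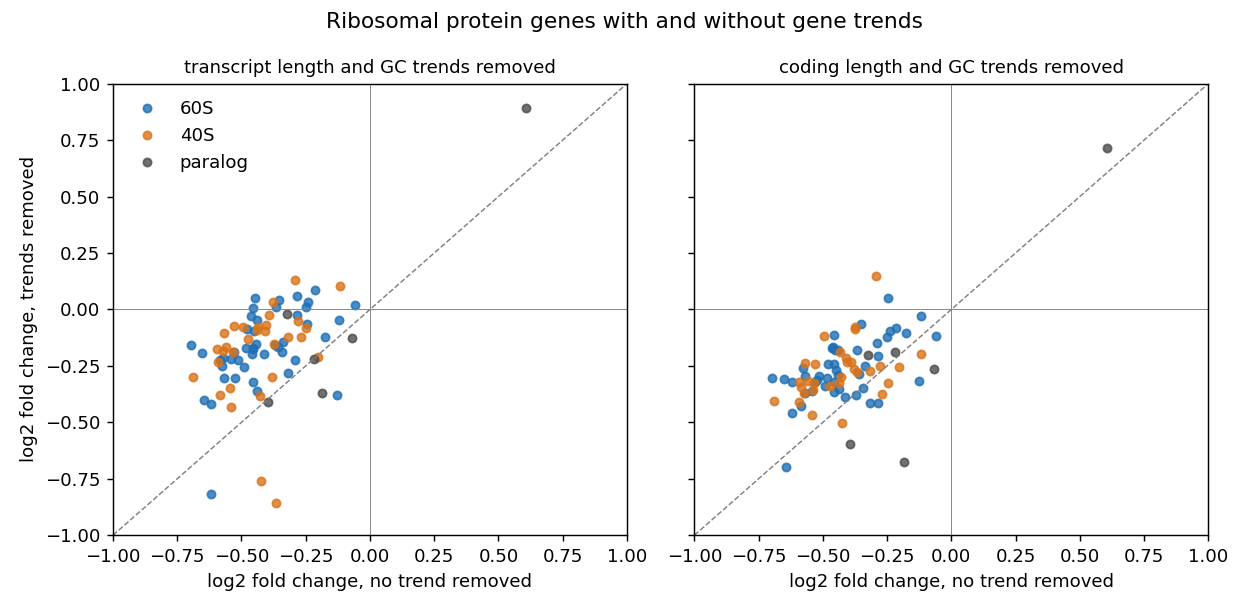
Log2 fold change (fructose over control) of each tested member without a correction (horizontal axis) and after removing the trends with transcript length and GC content (left) or coding length and coding GC content (right) on the vertical axis. Points on the dashed line are unaltered. Most points lie above the line and below 0 on the vertical axis, with a median of -0.17 on the left and -0.29 on the right.

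Within the 77 genes of the 60S and 40S sets, the log2 fold change had a Spearman correlation of -0.489 with GC content, 0.233 with transcript length, 0.141 with coding length and -0.341 with mean CPM. After the transcript trends were removed, the correlations with GC content and transcript length had the opposite sign, at 0.356 and -0.459, so that the longer transcripts among the members were then the lower ones. Split at the median coding length of 459 bases, the median log2 fold change was -0.45 in the 39 shorter genes (34 called) and -0.44 in the 38 longer genes (32 called). Coding length thus did not separate the genes by their fold change. It did follow the gap between the control libraries, with a correlation of -0.780 for control 1 minus control 2. The shorter genes were higher in control 1 by 0.256 and the longer ones by 0.122 on the log2 scale (medians).

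Ribosomal proteins whose symbols fall outside the rule were lower as well, among them Fau and Rack1. Fau, made as a fusion of a ubiquitin-like protein with a 40S protein, was at 303 and 266 CPM in control and 183 and 186 CPM in fructose libraries (log2 fold change -0.63, edgeR adjusted p = 0.00081). Rack1, a 40S scaffold for signalling kinases, was at 1112 and 1018 CPM in control and 698 and 706 CPM in fructose libraries (log2 fold change -0.60, edgeR adjusted p = 0.0010). Rack1 was still called after the transcript trends were removed (-0.43, edgeR adjusted p = 0.014) and Fau was not (-0.18, edgeR adjusted p = 0.22).

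Other TOP messages, which code for translation factors and related proteins, were less uniform. Of 18 listed, 6 fell and 2 rose, with a median log2 fold change of -0.19, where 10.7% of all tested genes fell and 15.5% rose. After trend removal 3 were called lower (Eef1b2, Eif3f and Naca), against 3.33% of all tested genes, and the median was -0.053. Eef2, the factor that moves the ribosome along, was at 3740 and 3612 CPM in control and 2662 and 2839 CPM in fructose libraries (log2 fold change -0.42, edgeR adjusted p = 0.0071). Eef1a1, which brings transfer RNA to the ribosome and was the most abundant of the list, was at 5043 and 5006 CPM in control and 4427 and 4653 CPM in fructose libraries (log2 fold change -0.15, edgeR adjusted p = 0.26). Tpt1 had overlapping groups (log2 fold change -0.08, edgeR adjusted p = 0.56). Npm1, a nucleolar chaperone, rose from 38.4 and 27.7 to 40.4 and 47.5 CPM (log2 fold change 0.41, edgeR adjusted p = 0.047), and was not called after trend removal (0.19, edgeR adjusted p = 0.37).

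In the lists of genes that make ribosomes, a smaller share was called lower than among the ribosomal protein genes. Against 10.7% of all tested genes lower and 15.5% higher, of 34 tested genes for RNA polymerase I and III transcription 3 fell and 3 rose, of 27 early nucleolar factors 6 fell and 2 rose, of 21 40S assembly factors 2 fell and 2 rose, and of 55 tested 60S assembly factors 4 fell and 3 rose. Their medians were 0.0050, -0.17, 0.032 and -0.025. The nucleolar factors went both ways. Fbl, the methyltransferase of ribosomal RNA, fell from 48.9 and 45.7 to 35.6 and 36.5 CPM (log2 fold change -0.39, edgeR adjusted p = 0.0090), and Ncl, nucleolin, rose from 42.6 and 30.3 to 52.8 and 55.7 CPM (log2 fold change 0.57, edgeR adjusted p = 0.0090). Neither was called after trend removal (-0.073 and -0.066). Over all 12888 tested genes, 429 (3.33%) were then called lower and 473 higher. With trends removed the early nucleolar factors had a median of -0.19, near that of the ribosomal protein genes, with 3 called lower (Snu13, Wdr36 and Imp4) and 0 higher. The 60S assembly factors then had a median of -0.10, with 4 called lower (Wdr12, Nip7, Nsa2 and Nmd3) and 0 higher. The polymerase list had 0 lower and 1 higher (Taf1d), and the 40S assembly factors 0 and 0, with medians of -0.0061 and -0.0046. Of the 8 listed host genes of small nucleolar RNAs only Eif4a2 could be tested (log2 fold change -0.09, edgeR adjusted p = 0.66).

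Of 19 tested regulators of TOP messages and of ribosome production, 2 fell and 5 rose, against the same 10.7% and 15.5% of all tested genes. Myc, a transcription factor that drives ribosomal protein genes, was at 15.2 and 12.03 CPM in control and 8.36 and 9.02 CPM in fructose libraries (log2 fold change -0.65, SE 0.16, edgeR adjusted p = 0.012). Eif4ebp1, an mTORC1 substrate that holds back cap-dependent translation, was at 170 and 157 CPM in control and 132 and 125 CPM in fructose libraries (log2 fold change -0.35, SE 0.08, edgeR adjusted p = 0.011). Larp1 was at 54.9 and 61.7 CPM in control and 71.4 and 76.0 CPM in fructose libraries (log2 fold change 0.34, SE 0.09, edgeR adjusted p = 0.017). Larp1 and the other genes that rose (Larp4 by 1.04, Tia1 by 0.98, Rps6kb1 by 0.84 and Tsc1 by 0.45 on the log2 scale) were not called after the transcript trends were removed, where Larp1 was at 0.17. Eif4ebp1 stayed called (-0.32, edgeR adjusted p = 0.035) and Myc did not (-0.52, edgeR adjusted p = 0.071). Eif4e, the cap-binding protein that Eif4ebp1 holds, was called lower under that correction alone of the 2 fits (-0.55, edgeR adjusted p = 0.0094, against 0.09 without it).

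Mitochondrial ribosomal proteins, which build the separate ribosome of the mitochondrion and are not TOP messages, were also lower. Of 78 genes (symbols Mrpl and Mrps), 40 fell and 0 rose, with a median log2 fold change of -0.26, against 10.7% of all tested genes lower. The lowest was Mrpl23, at 96.3 and 95.0 CPM in control and 65.4 and 62.7 CPM in fructose libraries (log2 fold change -0.58, edgeR adjusted p = 0.00073). After trend removal 17 were called lower, against 13 of the 83 cytosolic members and 3.33% of all tested genes. The median was then -0.087. The nuclear genes for both ribosomes were thus lower in the fructose libraries, by a median of -0.43 for the cytosolic and -0.26 for the mitochondrial set, and both medians lay nearer to 0 once length and GC trends were removed.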

How the data were processed

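RNA of fetal BAT was sequenced in 4 libraries (2 control, 2 fructose). Per the study's methods and the submitters' processing notes, the authors filtered reads with fastp, mapped them to mm10 with Bowtie2 2.0.0.5 and TopHat2 2.0.0, assembled with StringTie 2.2.0, merged the assemblies with Cuffmerge and deposited raw counts per gene. Strand and the handling of reads with several matches are not given in the sources used here, so counts of near-identical copies are uncertain. The column of each sample in the count table was identical to its single file (4 of 4).

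From the deposited counts, edgeR 4.0.16 (R 4.3.3; filterByExpr, TMM, quasi-likelihood test, Benjamini-Hochberg over 12888 genes) compared fructose with control without covariates. DESeq2 1.42.0, which the authors used, other scalings and filters, a replicate block, and length and GC trends (lowess span 0.3) removed as offsets were alternatives. The script was tested on simulated data of 12888 genes. There edgeR called 31.0% of the genes set to change 1.35-fold, with 15 calls on genes set not to change. At 2-fold it called 81.5%, with 10 such false calls. Only a small part of the 12888 genes was set to change. These counts were drawn for each gene apart, without a length or GC trend. The percentages therefore do not measure how reliable the calls on the members are. Transcript properties came from GENCODE M21, with 43 gene IDs not matched. Share and ratio values per library were compared by exact permutation tests. The SE of each log2 fold change was derived as its absolute value divided by the square root of the edgeR F statistic.

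The members and lists were chosen with earlier results of these data known. Genes were named by rule: paralogs, X-linked members, the 5 of each subunit highest per length, the 5 lowest and 3 highest by fold change, and ribosomal proteins with other symbols. Some genes that this rule names are not reported here. Rplp2, Rps29, Rpl12 and the related genes named beside these were chosen after their values were seen. The brown adipocyte, skeletal muscle, erythroid, macrophage, endothelial and cycling-cell marker lists were summed per library. Macrophage markers (8) had 2 lower and 1 higher and summed to between 162 and 218 CPM, and endothelial markers (6) had 0 called and summed to between 1047 and 1108 CPM.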

Additional observations from a re-analysis of the deposited data

How the results depend on the processing

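The members' median stayed below 0 under every alternative run, but the number of genes called varied and some members turned positive. With the transcript length trend removed, 20 members were called (10 60S, 10 40S, 0 paralogs; median -0.15); with length and GC trends 13 (5, 7 and 1; median -0.17); with these trends estimated without the ribosomal protein genes 15 (6, 7 and 2; median -0.18); with these trends and the replicate block 14 (5, 7 and 2; median -0.17); and with coding length and GC, an alternative chosen after seeing the data, 37 (22, 13 and 2; median -0.29). The 60S minus 40S median difference of -0.023 was -0.041, -0.044 and -0.040 under the 3 settings with both transcript trends. With the GC trend alone removed, 61 members were called. Library size only called 61, with Rpl10 and Rps4x among those lost and the median of all genes at 0.063. The other scalings, filters and DESeq2 called 67 to 70. The share of all tested genes called lower ran from 3.33% to 12.8% over the alternatives. Leaving out 1 library in turn gave 53 to 74 members (29 to 42 60S, 20 to 30 40S, 1 to 3 paralogs), a median of -0.52 to -0.32, a 60S minus 40S difference of -0.023 to 0.0028, a share difference of -1.15 to -0.665 points and a log2 60S to 40S ratio difference of 0.0093 to 0.020. That ratio difference was -0.013 without the 5 members with the most counts. With 1 library left out, the lone library was assumed to vary like the other group.

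Some of the genes named by rule turned positive, among them Rpl36a, Rpl36al and Rpl41, which had been called lower. With the length trend removed the genes were Rpl22l1 (0.15), Rpl23a (0.089), Rpl36a (0.011), Rpl36al (0.012), Rpl39l (0.21), Rpl4 (0.10) and Rps27a (0.16). With length and GC trends, where 13 of all 83 members lay above 0, they were Rpl23a (0.034), Rpl4 (0.019), Rpl41 (0.0057) and Rps27a (0.11); with the block added 0.033, 0.019, 0.0077 and 0.11 for the same genes; and with trends estimated without members Rpl23a (0.014), Rpl4 (0.017) and Rps27a (0.092). With library size only Rpl4 was at 0.0029. Leaving out 1 library in turn gave -0.21 to 0.089 for Rpl39l and -0.23 to 0.0027 for Rps27a, the positive values without control 1. The cause of these shifts was not tested.

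The replicate block, with the replicate number as a term, called 68 members, of which 67 were shared with the fit without it (Rps29 gained, Rps4x lost). The numbers did not pair the samples: deviations of same-numbered libraries had a correlation of -0.0266 over 2 pairs, and no label ties the numbers to a litter or batch.

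With 2 libraries a group, exact permutation tests could not go below p = 0.333, and low paralogs such as Rpl3l and Rpl39l were limited by their counts.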
